A study of Danio rerio with 72 samples.

Results

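The genes described here, mdm2, mdm4, gadd45ga, cdkn1bb and pmaip1, restrain p53 or act in the growth arrest and cell death associated with it. They were followed in the posterior presomitic mesoderm (PSM), the unsegmented tissue at the tail end of the zebrafish embryo from which somites form. The members were chosen with earlier results of these data known, and their probe sets were found by annotated gene symbol. Shares over all probe sets given beside the members are therefore a description, not a test of the members as a set. The 5 genes were represented by 7 probe sets among the 15502 probe sets of the array that are not controls, and 6 of these 7 were tested. The remaining probe set, the dimmer of the pair for pmaip1, lay above its array's median on 2 of 72 arrays.

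The 72 arrays fell into 19 groups of embryos grown at 24 °C to the 12-somite stage. In 8 groups wild-type AB embryos were left unheated and incubated in retinoic acid (RA), a signal from the formed somites, in DAPT, an inhibitor of the protease that releases active Notch, or in DMSO, the solvent, for 1.5 h or 3 h, with a separate DMSO group for each drug and time. In 11 groups embryos were heat-shocked at 37 °C. After a shock of 30 min, the PSM was taken 30 min or 1 h later from Tg(hsp701;dnfgfr1-EGFP) embryos, which express a dominant-negative Fgf receptor, and from wild-type AB controls. It was taken 1 h later from Tg(hsp:70:DeltaTcF-gfp), Tg(hsp:70:dkk1-gfp) and Tg(hsp:70:wnt8a-gfp) embryos, whose transgenes encode a truncated Tcf, a secreted Wnt inhibitor and a Wnt ligand. After a shock of 1 h, the PSM was taken 45 min or 90 min later from embryos carrying Tg(UAS:myc-notch1a-intra) together with Tg(hsp70;gal4VP16), in which gal4 drives the active intracellular part of Notch, and from controls with the gal4 transgene only. There were 4 arrays per group, fewer only in RA for 3 h (3 arrays), DAPT for 1.5 h (3 arrays) and DAPT for 3 h (2 arrays), described in the labels as biological replicates. All transgenes were driven by a heat shock promoter, directly or, for notch1a-intra, through gal4, so every transgenic group and its control had been heated.

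The protein p53 is a transcription factor that stressed or damaged cells stabilise, and that switches on genes for arrest of the cell cycle, repair and cell death. Its level is held down by Mdm2, a ubiquitin ligase whose own gene is a p53 target, and its activity by the related protein Mdm4. Gadd45 proteins are small stress sensors, the protein of cdkn1bb belongs to the p27 family of inhibitors of cyclin-dependent kinases, and pmaip1 encodes Noxa, a BH3-only protein that neutralises survival factors of the Bcl-2 family. The last 3 genes can also be regulated without p53.

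Levels are given as log2 signal after quantile normalization, on a scale whose bottom is 4. Levels of different probe sets cannot be set against each other. A difference is the first group's mean minus the second's, with its standard error, from one limma model over all 72 arrays. A difference was called where its p, adjusted over the 10126 probe sets tested, was under 0.05. The number of arrays limits the precision. In bulk tissue, fewer cells of a type and less RNA per cell cannot be told apart.

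The labels were checked before the members were compared. Means of the heat-inducible gene hsp70.3 ran between 8.98 and 12.63 in heated embryos and between 4.64 and 5.77 in unheated embryos. The signal of dkk1b was 13.05 ± 0.08 in the dkk1 group and 12.81 ± 0.09 in the libraries labelled DeltaTcf, against 5.44 ± 0.51 in wild type at 1 h (SD, n = 4 each), so the DeltaTcf label is uncertain, and DeltaTcf stands here for libraries so labelled. The Wnt feedback gene axin2 was at 5.68 ± 0.37 in dkk1, 5.83 ± 0.23 in DeltaTcf and 8.08 ± 0.26 in wnt8a, against 9.22 ± 0.34 in wild type at 1 h (SD, n = 4 each). It was below the control in the wnt8a group too, so the levels do not show raised Wnt signalling there, and wnt8a also stands for libraries so labelled. The signal of notch1a was 11.64 and 11.83 in replicates 1 and 3 of notch1a-intra at 45 min, but 8.0 and 8.29 in replicates 2 and 4, against 7.20 to 8.46 in gal4. Called member differences from that group are therefore also given for its replicates 1 and 3 only, set against all gal4 arrays at 45 min. Of 13 paraxial mesoderm markers on the array, 11 lay above the array median on every array.

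Across the 6 probe sets tested and 22 comparisons, 16 differences of 132 were called, 6 of them rises and 10 falls. They lay in 8 comparisons, in which between 3.42% and 47.1% of all probe sets were called. The other 14 gave none at an adjusted p under 0.05 in limma, with 10 of their 84 tests at an unadjusted p under 0.05. In those 14 comparisons between 0.375% and 5.35% of all probe sets were called, among them 4.83% for DMSO at 3 h against 1.5 h in the DAPT experiment, 3.96% for the change of the DAPT effect between times and 0.721% for that of the RA effect. The members did not move as a block. In the 3 lines labelled for Wnt transgenes gadd45ga was higher and cdkn1bb lower than in wild type. With notch1a-intra mdm4, gadd45ga, cdkn1bb and pmaip1 were called lower at 45 min, and mdm4 and cdkn1bb at 90 min. With the replicate number as a block in the model, only pmaip1 kept its call at 45 min and only cdkn1bb at 90 min. In replicates 2 and 4 of notch1a-intra at 45 min notch1a was not raised as in the other pair.

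**Figure D1:**
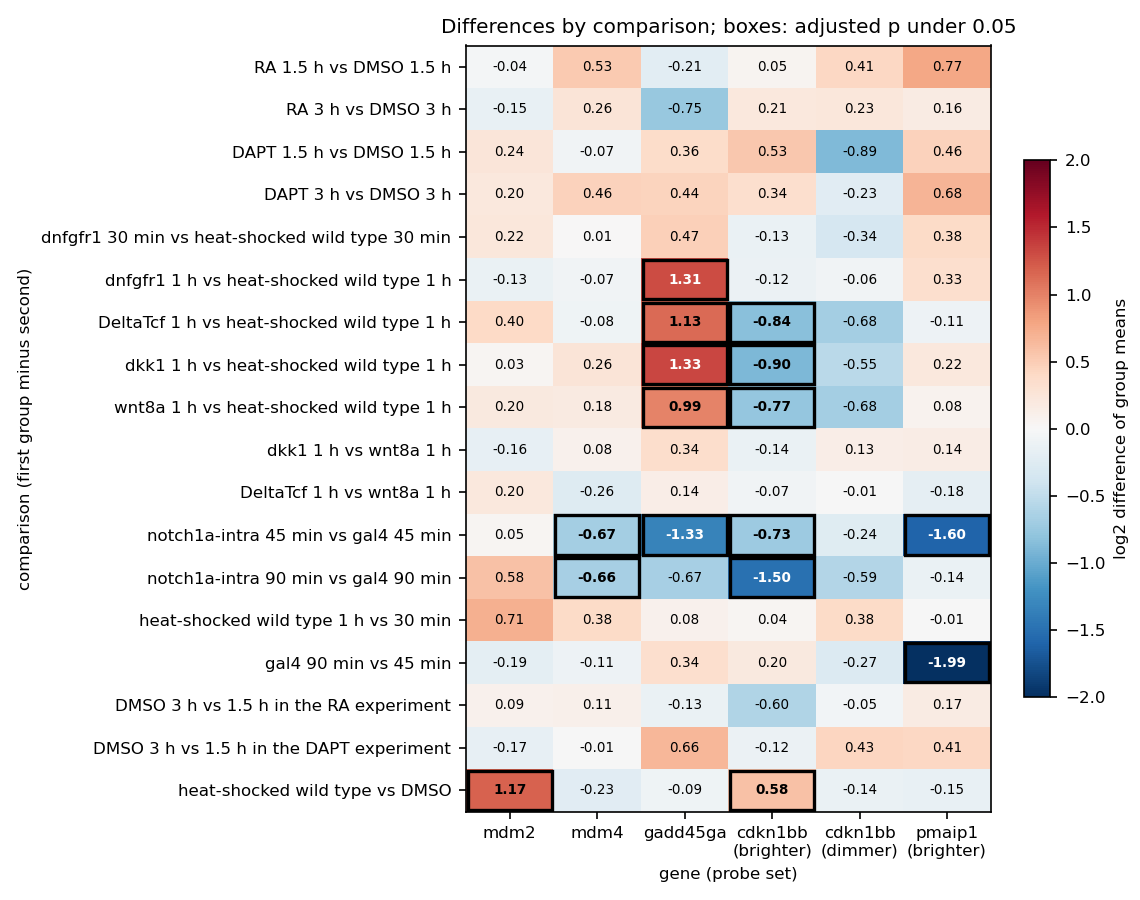
Log2 differences of group means for the 6 probe sets tested (columns) in 18 comparisons (rows, first group minus second); colour runs from blue (lower in the first group) to red (higher), and boxes mark an adjusted p under 0.05. The boxed cells of gadd45ga are red in the dnfgfr1 and Wnt rows at 1 h and blue with notch1a-intra at 45 min (-1.33), and the boxed cells of cdkn1bb (brighter probe set) are blue in the Wnt and notch1a-intra rows.

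The p53 ubiquitin ligase gene mdm2 (Entrez Gene 30637) was the only member of the 6 tested whose group means were separated between heated and unheated groups. Its highest group mean was 8.35 ± 0.11 in the libraries labelled DeltaTcf and its lowest 6.01 ± 0.77 in DMSO for DAPT at 3 h (SD, n = 4 each). All 11 heat-shocked groups, with means from 7.01 to 8.35, lay above all 8 unheated groups, with means from 6.01 to 6.78. Of all probe sets tested, 3.61% were separated in the same way with the heated groups higher and 3.88% with them lower. Among single arrays, 32 of 44 from heat-shocked embryos lay above the highest unheated array, at 7.18. The step between the lowest heated mean (gal4 at 90 min) and the highest unheated mean (DMSO for RA at 3 h) was 0.23. That was less than the larger standard deviation of these groups, 0.35. Heat and experiment differed together between heated and unheated groups, and their parts cannot be told apart.

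Only wild-type groups allow heat to be examined without a transgene. Wild-type embryos had mdm2 at 8.52, 7.91, 7.34 and 8.0 when taken 1 h after the shock and at 7.06, 7.26, 7.08 and 7.55 when taken after 30 min. The 4 DMSO groups ranged from 6.1 to 6.93 (DMSO for RA, 1.5 h), 6.36 to 7.18 (RA, 3 h), 5.95 to 6.42 (DAPT, 1.5 h) and 5.05 to 6.78 (DAPT, 3 h). All arrays but 1 of the DMSO groups lay below every heated wild-type array. Averaged over groups, mdm2 was higher in heat-shocked wild type than in DMSO by 1.17 ± 0.17, or 2.26-fold (7.59 against 6.42, adjusted p = 4.52e-08). Of all probe sets tested, 47.1% were called in this comparison, and 2.52% rose by at least as much as mdm2.

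Heat shock, DMSO and the experiment itself all differed between these groups, and their parts in the mdm2 difference cannot be told apart. Of the 17 heat shock genes tested, 13 rose and 1 fell in the same comparison, and of 13 paraxial mesoderm markers 7 rose. The part of tissue composition in the mdm2 result was not tested. In wild type hsp70.3 averaged 11.78 at 1 h and 12.49 at 30 min after the shock. The mdm2 means were 7.94 ± 0.48 at 1 h and 7.24 ± 0.23 at 30 min (SD, n = 4 each), a difference of 0.71 ± 0.28 for 1 h over 30 min that was not called (adjusted p = 0.141, with 4.37% of probe sets called).

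Neither Wnt nor Fgf manipulation changed mdm2 by a called amount. Against wild type at 1 h it differed by 0.40 ± 0.28 in the libraries labelled DeltaTcf, by 0.03 in dkk1, by 0.20 in wnt8a and by -0.13 in dnfgfr1, and the 95% intervals together spanned -0.69 to 0.96. With notch1a-intra at 90 min it had 7.88, 7.10, 8.05 and 7.33, against 7.40, 7.0, 6.85 and 6.80 in gal4. That difference of 0.58 ± 0.28 was not called (adjusted p = 0.222). RA and DAPT left mdm2 within 0.24 of DMSO at both times.

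The related inhibitor gene mdm4 (Entrez Gene 334932) was not separated in this way between heated and unheated groups. Its group means spanned the narrowest range of the 6 probe sets tested, from 8.63 with RA at 1.5 h to 7.50 with notch1a-intra at 90 min. Heat, DMSO and the experiment cannot be told apart for mdm4 either. In heat-shocked wild type it was lower than in DMSO by -0.23 ± 0.11, which was not called (adjusted p = 0.0776). Its lowest means belonged to both notch1a-intra groups.

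**Figure D2:**
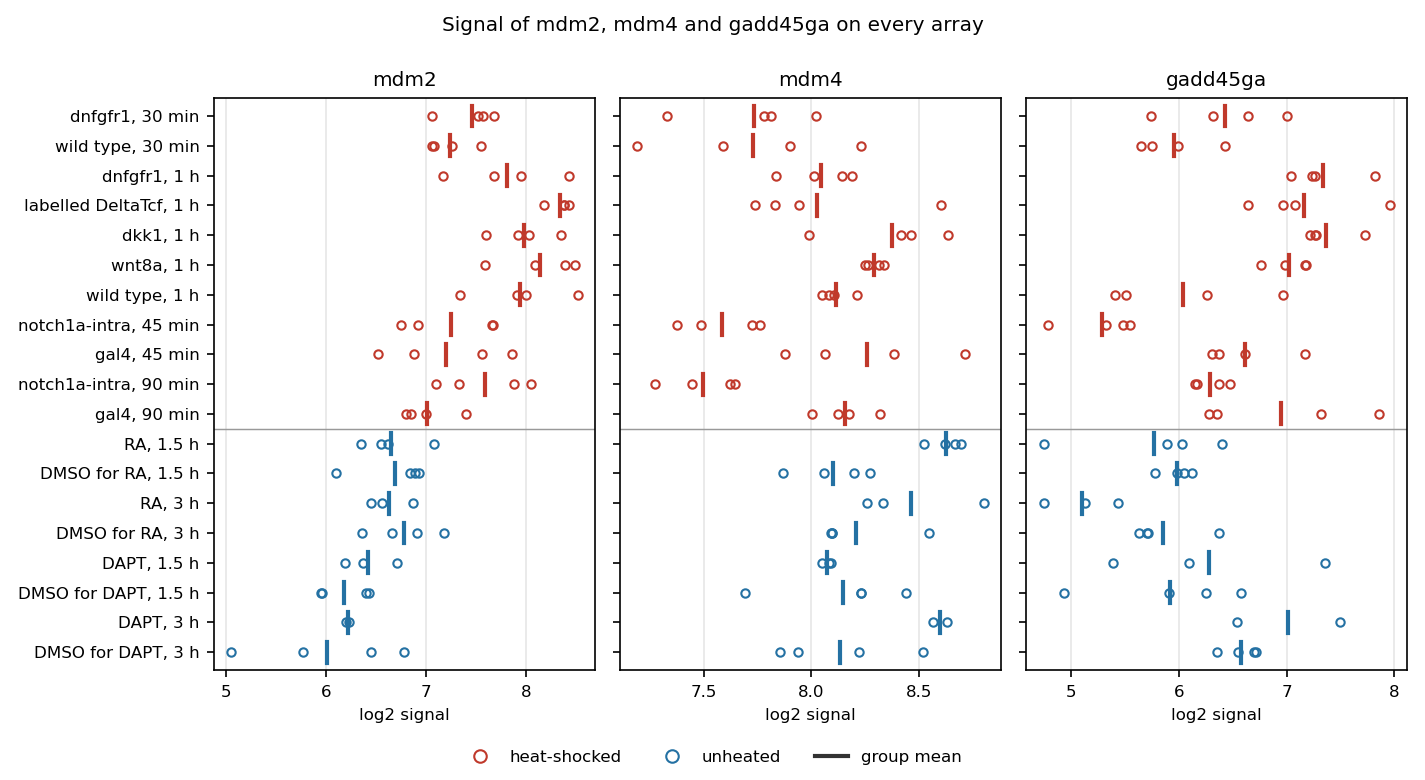
Log2 signal (horizontal axis) of mdm2, mdm4 and gadd45ga on every array (open circles), with group means (bars), for the 19 groups; the 11 heat-shocked groups (red) stand above the 8 unheated ones (blue). For mdm2 every heated mean exceeds every unheated mean, while for mdm4 the lowest means are those of notch1a-intra, at 7.59 and 7.50.

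In notch1a-intra mdm4 was lower than in gal4 at both times. At 45 min it had 7.38, 7.76, 7.49 and 7.72 in notch1a-intra, against 8.06, 8.71, 7.88 and 8.38 in gal4. At 90 min it had 7.27, 7.62, 7.44 and 7.65 in notch1a-intra, against 8.12, 8.17, 8.32 and 8.0 in gal4. The groups did not overlap at either time, as was the case for 8.78% of all probe sets at 45 min and 13.3% at 90 min.

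The mdm4 difference was -0.67 ± 0.18, a fall of 1.59-fold, at 45 min (adjusted p = 0.0154) and -0.66 ± 0.18, a fall of 1.58-fold, at 90 min (adjusted p = 0.0126). The effect at 90 min minus that at 45 min was 0.02 ± 0.25. With the replicate number as a block the 45 min call was lost (adjusted p = 0.0842). With replicates 1 and 3 of notch1a-intra only, against all gal4 arrays, the difference was -0.83 (adjusted p = 0.00715). The gal4 arrays kept in that run included replicates 2 and 4, at 8.71 and 8.38, above replicates 1 and 3, at 8.06 and 7.88. Within replicates 2 and 4, whose notch1a was not raised as in the other pair, mdm4 was lower than in the gal4 array of the same number by -0.95 and -0.66, and within replicates 1 and 3 by -0.69 and -0.39. The 45 min call was also lost with median centring of the arrays (adjusted p = 0.0786), with array quality weights (-0.35, adjusted p = 0.0897) and with the compared groups alone (adjusted p = 0.20). It was lost without replicate 2 of gal4, and without replicate 1 or 3 of notch1a-intra (highest adjusted p of these 0.108), and the 90 min call without gal4 replicate 3 or notch1a-intra replicate 1 (highest adjusted p 0.0640) and with the replicate block (adjusted p = 0.0742).

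Every array with RA was above every DMSO array for mdm4 at 1.5 h, without a call. At that time it had 8.66, 8.62, 8.70 and 8.52 with RA, against 7.87, 8.06, 8.20 and 8.27 with DMSO. Such separation was found for 12.7% of all probe sets, and the difference of 0.53 ± 0.18 was not called (adjusted p = 0.0726, with 4.34% of probe sets called). At 3 h the difference was 0.26 ± 0.19 (adjusted p = 0.785, with 3.68% called). In DAPT at 3 h both arrays, at 8.56 and 8.63, lay above the 4 DMSO arrays, at 7.86 to 8.52 (0.46 ± 0.22, adjusted p = 0.206, with 5.35% called and 20.8% not overlapping). In wnt8a mdm4 also did not overlap with wild type, as for 23.8% of all probe sets, at a difference of 0.18 ± 0.18 (adjusted p = 0.560). The mean of 13 paraxial mesoderm markers was 8.27 with RA at 1.5 h, against 9.30 in DMSO, and 8.40 with RA at 3 h, against 9.52. In DAPT at 3 h the marker mean was 8.02, against 8.95 in DMSO. The part of tissue composition in the RA and DAPT values of mdm4 was not tested.

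The stress sensor gene gadd45ga (Entrez Gene 402991) rose in all 4 transgenic groups taken 1 h after a heat shock of 30 min. Its values were 7.83, 7.24, 7.26 and 7.05 in dnfgfr1 and 6.64, 6.97, 7.08 and 7.96 in the libraries labelled DeltaTcf. They were 7.27, 7.22, 7.26 and 7.73 in dkk1 and 7.17, 7.18, 6.76 and 6.99 in wnt8a. Wild type at 1 h, the control of all 4 groups, had 6.97, 5.40, 5.51 and 6.26. Wild-type replicate 1 was as high as some transgenic arrays of the DeltaTcf and wnt8a groups, and the other wild-type arrays lay below every transgenic one.

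In dnfgfr1 gadd45ga rose by 1.31 ± 0.34, or 2.47-fold (adjusted p = 0.0162), the 1 member of 6 called there, with 3.42% of all probe sets called, 1.82% as rises. Its arrays did not overlap with wild type, like those of 10.4% of all probe sets. It rose in the libraries labelled DeltaTcf by 1.13 ± 0.34, or 2.18-fold (adjusted p = 0.0135), in dkk1 by 1.33 ± 0.34, or 2.52-fold (adjusted p = 0.00245), and in wnt8a by 0.99 ± 0.34, or 1.98-fold (adjusted p = 0.038). In each of these 3 Wnt groups 2 of the 6 members were called, gadd45ga higher and cdkn1bb lower. Of all probe sets, 20.6% were called in DeltaTcf (9.92% higher, 10.6% lower), 24.6% in dkk1 (12.5% higher, 12.1% lower) and 16.2% in wnt8a (7.84% higher, 8.39% lower). Because the 4 comparisons share the same 4 wild-type arrays, they are not independent of each other. Line and transgene differed together between these groups and wild type, and their parts in the rises cannot be told apart.

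The wild-type arrays taken 30 min after the shock had gadd45ga at 5.75, 6.42, 5.65 and 5.99. Set against these arrays, an alternative added with the data in view, all 4 rises were called (1.39 in dnfgfr1, 1.21 in DeltaTcf, 1.41 in dkk1 and 1.07 in wnt8a). The dkk1 call held in every alternative run. The dnfgfr1 call was lost without dnfgfr1 replicate 1 or wild-type replicate 2 or 3 (highest adjusted p 0.106), and the DeltaTcf call without wild-type replicate 2 or 3 or DeltaTcf replicate 4 (0.0873). The wnt8a call was lost without wild-type replicate 2 or 3 or any of wnt8a replicates 1, 2 and 4 (0.168). With the compared groups alone the adjusted p was 0.0817 in dnfgfr1, 0.0696 in DeltaTcf and 0.0516 in wnt8a, and the wnt8a call was also lost with a pseudocount of 1 (0.0526) and with no filter (0.0555). The DeltaTcf call was lost with the replicate block as well (0.0658).

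The dkk1 and wnt8a groups had gadd45ga levels that were not told apart by the test. All dkk1 arrays lay above all wnt8a arrays, and 11.9% of all probe sets were free of overlap in one direction or the other. The difference of dkk1 over wnt8a was 0.345 ± 0.34, with a 95% interval from -0.34 to 1.03 (adjusted p = 0.683, with 3.28% of probe sets called). That of DeltaTcf over wnt8a was 0.14 ± 0.34, with an interval from -0.55 to 0.83 (adjusted p = 0.914, with 2.53% called). In dnfgfr1 30 min after the shock gadd45ga had 7.0, 5.74, 6.64 and 6.32, and its difference from wild type of 0.47 ± 0.34 was not called (adjusted p = 0.613, with 3% of probe sets called). The dnfgfr1 effect at 1 h minus that at 30 min was 0.84 ± 0.49 (adjusted p = 0.751, with 0.375% called), so a change of the effect with time was not shown.

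In notch1a-intra gadd45ga was lower than in gal4 at 45 min. At 45 min it had 5.48, 5.55, 5.32 and 4.78 in notch1a-intra, against 6.31, 6.62, 6.37 and 7.17 in gal4. The groups did not overlap, as for 8.78% of all probe sets. The difference of -1.33 ± 0.34 was a fall of 2.52-fold (adjusted p = 0.0136). A fall at least as large was found for 0.642% of all probe sets. The call was lost with the replicate block (adjusted p = 0.0620) and without replicate 4 of either group (highest adjusted p 0.0642). It was kept with replicates 1 and 3 of notch1a-intra only (-1.21, adjusted p = 0.0491). That run kept all gal4 arrays, among them replicate 4 at 7.17. Arrays of the same number differed by -0.83 and -1.05 in replicates 1 and 3, where notch1a was raised. In replicates 2 and 4, where it was not, they differed by -1.07 and -2.39. A link of the gadd45ga difference to the notch1a level was not tested. At 90 min the values were 6.47, 6.15, 6.37 and 6.16 in notch1a-intra and 7.32, 6.28, 7.86 and 6.35 in gal4, a difference of -0.67 ± 0.34 that was not called (adjusted p = 0.266).

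Among unheated groups gadd45ga had its lowest mean with RA at 3 h, with 5.12, 5.44 and 4.74, against 5.70, 5.63, 5.71 and 6.37 in DMSO. These arrays did not overlap, as for 16% of all probe sets, but the difference of -0.75 ± 0.37 was not called (adjusted p = 0.437). Some of its relatives rose. Of the 8 tested genes in the list of other inhibitors of cyclin-dependent kinases and Gadd45 relatives, 2 rose and 1 fell after 1.5 h of RA and 3 rose after 3 h. Of all probe sets 4.34% were called at 1.5 h and 3.68% at 3 h. At 1.5 h gadd45ab rose by 2.03 ± 0.27 and gadd45ba by 1.91 ± 0.33, while cdkn1ca, of the p57 family, fell by 1.02 on the log2 scale (adjusted p = 0.0367), a call lost when any 1 of 6 of the 8 arrays was left out (highest adjusted p 0.194, without RA replicate 2). At 3 h gadd45ab rose by 2.58 ± 0.29 (5.96-fold), gadd45ba by 2.94 ± 0.36 (7.66-fold) and gadd45bb by 2.21 ± 0.35 (4.63-fold). The median difference of the list was 0.32 at 1.5 h and 0.29 at 3 h, against -0.02 and -0.01 over all probe sets. In the same comparisons 8 and 6 of 13 paraxial mesoderm markers fell and 3 and 2 of 12 neural markers rose, and their part in these rises was not tested.

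The kinase inhibitor gene cdkn1bb (Entrez Gene 368329) had a brighter and a dimmer probe set, so named by their mean signal, and they did not move alike. On the brighter one cdkn1bb had its highest means in the gal4 controls, 8.13 ± 0.37 at 90 min and 7.93 ± 0.45 at 45 min, and its lowest in dkk1, 6.25 ± 0.27 (SD, n = 4 each). Over the 19 group means the pair correlated at r = -0.02, a description of means that share arrays.

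The brighter probe set fell in the 3 Wnt groups. Its values were 6.49, 6.52, 6.27 and 5.95 in the libraries labelled DeltaTcf, 6.56, 6.36, 5.93 and 6.14 in dkk1 and 6.32, 6.5, 6.23 and 6.48 in wnt8a. In wild type at 1 h they were 7.13, 7.39, 7.36 and 6.72. Every array of the 3 groups lay below every wild-type array. Of all probe sets, 24.4% in DeltaTcf, 26.9% in dkk1 and 23.8% in wnt8a were free of overlap in one direction or the other.

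The falls were -0.84 ± 0.20 in DeltaTcf (1.79-fold, adjusted p = 0.0018), -0.90 ± 0.20 in dkk1 (1.87-fold, adjusted p = 0.000589) and -0.77 ± 0.20 in wnt8a (1.70-fold, adjusted p = 0.00564). All 3 were kept in every alternative run. Line and transgene differed together between these groups and wild type, and their parts in the falls cannot be told apart. Between dkk1 and wnt8a 3.28% of all probe sets were called, and between DeltaTcf and wnt8a 2.53%. In dnfgfr1 at 1 h, heated in the same way, the difference was -0.12 ± 0.20 (95% interval -0.53 to 0.29). The dimmer probe set differed from wild type by -0.68 ± 0.27 in DeltaTcf (adjusted p = 0.0681), -0.55 ± 0.27 in dkk1 (adjusted p = 0.143) and -0.68 ± 0.27 in wnt8a (adjusted p = 0.0829), and none of these was called. The dkk1 and wnt8a groups were not told apart on the brighter probe set either, with dkk1 over wnt8a at -0.14 ± 0.20 (95% interval -0.55 to 0.27).

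**Figure D3:**
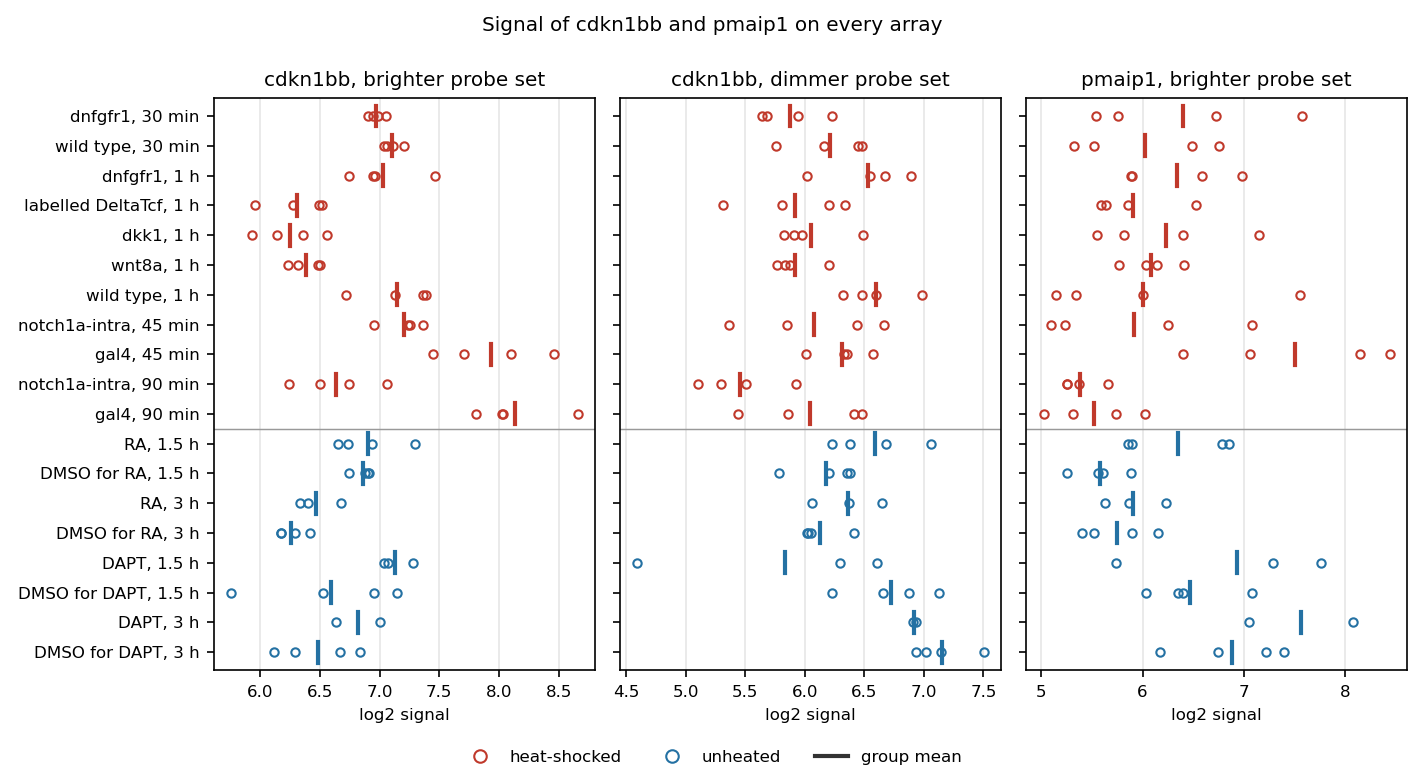
Log2 signal (horizontal axis) of both cdkn1bb probe sets and the brighter pmaip1 probe set on every array (open circles), with group means (bars), for the 19 groups; the 11 heat-shocked groups (red) stand above the 8 unheated ones (blue). The brighter cdkn1bb probe set has its highest means in gal4 and, among heat-shocked groups, its 3 lowest in the Wnt groups at 1 h, and pmaip1 is spread widely within groups.

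Of the 5 called falls of cdkn1bb, the largest came with active Notch at 90 min. Its brighter probe set had 6.75, 6.24, 7.06 and 6.5 in notch1a-intra, against 8.02, 8.04, 8.66 and 7.81 in gal4. The groups were separated by more than the standard deviation of either, and 13.3% of all probe sets were free of overlap there. The difference of -1.50 ± 0.20 was a fall of 2.82-fold (adjusted p = 3.0e-07) that was kept in every alternative run. Of the 6 members 2 were called at 90 min, cdkn1bb and mdm4, both lower, with 6.87% of all probe sets called, 3.15% as falls, and 0.286% falling by at least as much as cdkn1bb.

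At 45 min cdkn1bb had 6.95, 7.24, 7.25 and 7.37 in notch1a-intra, against 8.10, 7.45, 8.46 and 7.71 in gal4. The groups were next to each other without overlap, as was the case for 8.78% of all probe sets. The difference was -0.73 ± 0.20, a fall of 1.65-fold (adjusted p = 0.0276), but it was not called with the replicate block (adjusted p = 0.149). Arrays of the same number differed by -1.14 and -1.21 in replicates 1 and 3, where notch1a was raised. In replicates 2 and 4, where it was not, they differed by -0.21 and -0.34. The gal4 arrays varied more by number (8.10 and 8.46, against 7.45 and 7.71) than the notch1a-intra arrays (6.95 and 7.25, against 7.24 and 7.37). A link of the cdkn1bb difference to the notch1a level was not tested. The call was lost when replicate 1 or 3 of either group was left out (highest adjusted p 0.135) and with the compared groups alone (0.218), and with replicates 1 and 3 of notch1a-intra only the difference was -0.83 (adjusted p = 0.0240).

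The notch1a-intra effect on cdkn1bb at 90 min minus that at 45 min was -0.77 ± 0.29 (adjusted p = 0.232, with 0.691% of probe sets called). The larger fall at 90 min was therefore not shown to differ. The dimmer probe set differed by -0.59 ± 0.27 at 90 min (adjusted p = 0.203) and by -0.24 ± 0.27 at 45 min (adjusted p = 0.704). In DAPT, which blocks Notch cleavage, the brighter probe set was higher than DMSO by 0.53 ± 0.22 at 1.5 h and 0.34 ± 0.25 at 3 h, neither called (adjusted p = 0.167 and 0.484). The dimmer one at 1.5 h was at 4.59, 6.29 and 6.61 with DAPT, against 6.23 to 7.12 with DMSO (-0.89 ± 0.30, adjusted p = 0.0717, with 4.09% of probe sets called). DAPT replicate 1 alone lay far below the rest.

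In heat-shocked wild type the brighter probe set of cdkn1bb was higher than in DMSO by 0.58 ± 0.13, or 1.49-fold (7.13 against 6.55, adjusted p = 0.000104). Of the 6 members 2 were called in that comparison, mdm2 and cdkn1bb, both higher, with 22.3% of all probe sets called higher. A rise at least as large as that of cdkn1bb was found for 10.2% of all probe sets. The dimmer probe set differed by -0.14 ± 0.17. Heat shock, DMSO and the experiment cannot be told apart in these values either. Between DMSO groups of the RA experiment the brighter one had 6.29, 6.17, 6.17 and 6.41 at 3 h, against 6.90, 6.91, 6.75 and 6.88 at 1.5 h, with no overlap, as for 17.2% of all probe sets. That difference of -0.60 ± 0.20 was not called (adjusted p = 0.0824, with 4.37% of probe sets called), but was called with the deposited scaling.

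The Noxa gene pmaip1 (Entrez Gene 751765), at its brighter probe set, varied most among arrays of a group. The pooled standard deviation within groups was 0.66, against 0.25 for mdm4. Its group means ran from 7.57 ± 0.72 in DAPT at 3 h (SD, n = 2) to 5.38 ± 0.19 in notch1a-intra at 90 min (SD, n = 4). At the dimmer probe set the group means lay between 4.30 and 5.31, near the bottom of the scale.

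Called differences of pmaip1 all involved the gal4 control at 45 min. In gal4 pmaip1 was at 5.73, 5.31, 6.03 and 5.02 at 90 min, against 7.06, 8.44, 6.40 and 8.15 at 45 min. All arrays at 90 min lay below all arrays at 45 min. The fall for 90 min against 45 min was -1.99 ± 0.45, or 3.97-fold (adjusted p = 0.00394), the 1 member of 6 called there, with 5.12% of all probe sets called, 2.92% as falls, and 7.99% free of overlap. The call was lost without replicate 2 of gal4 at 45 min (adjusted p = 0.0513), with the compared groups alone (0.0978) and with the replicate block (0.192).

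In notch1a-intra at 45 min pmaip1 had 5.10, 7.08, 5.24 and 6.25, against 7.06, 8.44, 6.40 and 8.15 in gal4. The groups overlapped, but in each of the 4 same-numbered pairs notch1a-intra was lower, by -1.96, -1.36, -1.16 and -1.89 in replicates 1 to 4. Replicates 2 and 4 were high in both groups. The difference was -1.60 ± 0.45, a fall of 3.02-fold (adjusted p = 0.0296, and 0.0116 with the replicate block). With replicates 1 and 3 of notch1a-intra only, it was -2.35 (adjusted p = 0.00204). That run kept all gal4 arrays, among them the high replicates 2 and 4, and the same-numbered pairs 1 and 3 differed by less. The pmaip1 difference was -0.47 and not called with array quality weights (adjusted p = 0.415). It was not called with the compared groups alone (0.254), nor without gal4 replicate 2 or 4 or notch1a-intra replicate 1 or 3 (highest adjusted p 0.136).

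Together 4 of the 6 members, mdm4, gadd45ga, cdkn1bb and pmaip1, were called in notch1a-intra at 45 min, all lower. Of all probe sets 4.09% were called there, 1.96% as falls. With the replicate block, in the comparison whose numbers pair arrays, 1 of the 6 was called, pmaip1. The median difference of the 6 was -0.70 at 45 min and -0.62 at 90 min, against 0.01 and 0.00 over all probe sets. At 90 min pmaip1 differed by -0.14 ± 0.45 (95% interval -1.05 to 0.77). The effect at 90 min minus that at 45 min was 1.46 ± 0.64 for pmaip1 (adjusted p = 0.343). At 45 min the mean of 9 muscle markers ran from 7.66 to 7.89 in notch1a-intra, against 6.77 to 7.36 in gal4. That of 4 notochord markers ran from 7.44 to 7.59, against 5.28 to 7.13. Paraxial mesoderm, neural and epidermis means overlapped between these groups. The part of tissue composition in the falls of the members at 45 min was not tested.

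Blood markers moved with pmaip1 in the comparisons that involve gal4 at 45 min, but not between notch1a-intra and gal4 at 90 min. The mean log2 signal of 8 blood and endothelium markers was 4.97, 6.5, 5.70 and 6.14 in notch1a-intra at 45 min, against 7.32, 8.25, 6.70 and 6.74 in gal4 at that time. It was 6.51, 6.54, 5.52 and 6.47 in notch1a-intra at 90 min, against 5.59, 6.56, 5.07 and 4.96 in gal4 at 90 min, with a list median of 0.71 beside the pmaip1 difference of -0.14. In gal4 the markers were lower at 90 min than at 45 min with a list median of -1.81, and 2 of the 8 were called, the embryonic globin gene hbae3 and the haem synthesis gene alas2. For notch1a-intra at 45 min limma called none of the 8, with 6 lower at an unadjusted p under 0.05 and a list median of -1.31. Of 9 such genes on the array, 1 was above the array median on no array and 4 were on most arrays. Over the 19 groups the pmaip1 mean correlated with the blood list at r = 0.70 and with the epidermis list at r = 0.57, as a description of means from the same arrays. The part of these tissues in the pmaip1 results was not tested.

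**Figure D4:**
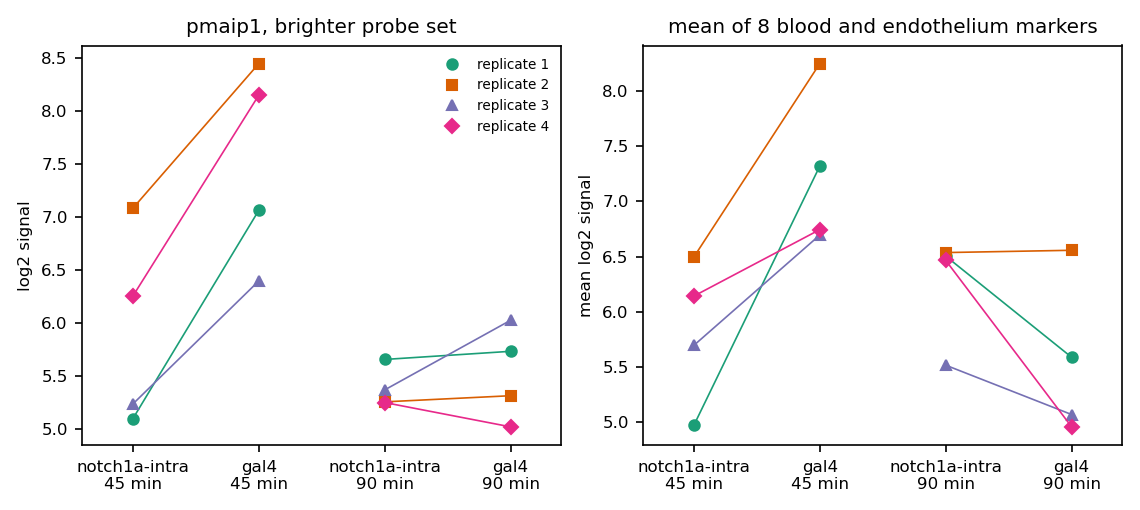
Log2 signal of pmaip1 (left) and mean log2 signal of 8 blood and endothelium markers (right) on each array of the notch1a-intra and gal4 groups; lines join arrays of the same replicate number at the same time. Both are highest in gal4 at 45 min, where pmaip1 reaches 8.44 and the marker mean 8.25, both in replicate 2.

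Ordered by mean, neighbouring groups were mostly not separated. Of the 18 steps between neighbours in each probe set's order of 19 groups, none exceeded the larger of the standard deviations of the groups on either side for mdm2, mdm4, gadd45ga, the dimmer cdkn1bb and the brighter pmaip1. For the brighter cdkn1bb 1 step did, between gal4 at 45 min and notch1a-intra at 45 min.

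Tested genes with 1 symbol were ranked by the Pearson correlation of their means over the 19 groups with each member, as a description. Members and genes with placeholder names, such as those starting with si: or zgc:, were left out of the ranking. The genes most like each member in that ranking follow. For mdm2 they were snx17 (r = 0.951), qsox1 (0.944) and uso1 (0.943). For mdm4 they were tmem30ab (0.796), cops4 (0.792) and ftr83 (0.788), and for gadd45ga slc9a7 (0.807), gmppb (0.801) and alg5 (0.792). The brighter cdkn1bb was most like ptprsa (0.904), atp2b4 (0.882) and zftraf1 (0.861), and the dimmer like gorab (0.833), supt6h (0.787) and urod (0.783). For pmaip1 they were lsr (0.812), cahz (0.787), a carbonic anhydrase gene, and the collagen gene col1a2 (0.778). No member was most like another, and among member pairs r ran from -0.54 for mdm2 with the dimmer cdkn1bb to 0.53 for pmaip1 with it.

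Beyond the members, 31 other p53 pathway genes and 31 other cell death genes were tested. Each list gene was counted once, by its brightest probe set, while shares of all probe sets count every probe set tested. The list shares and the shares of all probe sets are therefore not like measures. In heat-shocked wild type against DMSO 10 of the p53 pathway genes rose and 5 fell, with a median of 0.06, at the background of 47.1%. The p53 target gene ccng1, which encodes cyclin G1, rose by 1.16 ± 0.11 (2.24-fold) and bbc3, which encodes the BH3-only protein Puma, by 1.56 ± 0.26 (2.95-fold). The p53 deubiquitinase gene usp7 was lower by -1.0, with -0.11 at its other probe set, and the p53 effector gene perp by -0.48 ± 0.07. Of the cell death genes 8 rose and 14 fell, with a median of -0.18, or 71% of the list against 47.1% of all probe sets. The translation inhibitor gene pdcd4b rose by 4.25 ± 0.14, or 18.99-fold, the survival gene mcl1a by 0.82 and the survival gene bcl2l1 by 1.19, with -0.12 at its other probe set, while tmbim4 was lower by -0.99. The heat and the experiment cannot be told apart in these either.

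In wild type bbc3 rose with time after the heat shock. It averaged 7.98 at 1 h and 5.56 at 30 min, a rise of 2.42 ± 0.42, or 5.34-fold (adjusted p = 0.000128). The stress transcription factor gene atf3 was lower at 1 h by -2.02 ± 0.56 (adjusted p = 0.0228), at 6.0, against 8.02 at 30 min. These were the only p53 pathway genes of 31 called in that comparison (6.45%, against 4.37% of all probe sets), and 1 cell death gene of 31, diabloa, fell by 0.68 on the log2 scale. The bbc3 call was kept without any 1 array, but was lost with the replicate block (adjusted p = 0.0624). The call of atf3 was lost without replicate 3 or 4 of either group (highest adjusted p 0.136) and that of diabloa without any 1 of 6 arrays (0.208).

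In the 3 Wnt groups at 1 h, compared with the same wild-type arrays, perp rose in each (0.83 in DeltaTcf, 0.91 in dkk1 and 0.91 in wnt8a, SE 0.12). Line and transgene cannot be told apart in these comparisons either. Of 31 p53 pathway genes 3 rose and 2 fell in DeltaTcf, 2 rose and 4 fell in dkk1 and 2 rose and 1 fell in wnt8a, with medians of 0.07, -0.11 and 0.04. These are 16.1%, 19.4% and 9.68% of the list, below the 20.6%, 24.6% and 16.2% of all probe sets. The insulin-like growth factor binding protein gene igfbp1a rose by 1.98 ± 0.30 in dkk1 and 1.04 ± 0.30 in DeltaTcf, with 0.02 and 0.27 at its other probe set. It was higher in dkk1 than in wnt8a by 1.80 (adjusted p = 5.81e-05). The initiator caspase gene casp9 rose by 0.89 in dkk1, a call lost without dkk1 replicate 2 (0.70, adjusted p = 0.0735), and by 1.03 in wnt8a, and gadd45gip1, whose protein binds Gadd45 proteins, was lower by -1.09 in DeltaTcf, -0.99 in dkk1 and -0.77 in wnt8a.

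In notch1a-intra against gal4, 1 p53 pathway gene rose and 1 fell at each time, 6.45% of the list. That share was near the 4.09% of all probe sets at 45 min and 6.87% at 90 min. The antiproliferative gene btg2 rose by 0.55 at 90 min and by 0.42 at 45 min, where the call was lost without replicate 3 of either group (highest adjusted p 0.0913), with replicates 1 and 3 of notch1a-intra only (0.39, adjusted p = 0.0658), with the compared groups alone (0.135) and with the replicate block (0.117). The gene igfbp1a was lower at 45 min by -2.03 ± 0.30 (4.08-fold, with -1.71 at its other probe set), and by -2.25 with replicates 1 and 3 of notch1a-intra only (adjusted p = 1.31e-05), and its effect was higher at 90 min than at 45 min by 2.54 ± 0.42 (adjusted p = 0.000212). In gal4 at 90 min against 45 min the survival gene bcl2l1 was lower by -0.88 ± 0.17 (adjusted p = 0.000536), with -0.52 at its other probe set, beside the fall of pmaip1. The bcl2l1 call was lost with the compared groups alone and with the replicate block (highest adjusted p 0.166). Among 31 cell death genes 2 rose and 3 fell in gal4 at 90 min against 45 min, or 16.1% of the list against 5.12% of all probe sets. The pro-apoptotic gene bada was higher by 0.90, a call lost without gal4 replicate 2 at 45 min or 4 at 90 min (highest adjusted p 0.0822).

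In dnfgfr1 at 30 min igfbp1a rose by 1.74 ± 0.30 and sesn3, a sestrin gene, by 2.24, the 2 p53 pathway genes called of 31 (6.45%, against 3% of all probe sets), and at 1 h 0 rose and 1 fell, isg20 (-0.70, not called without dnfgfr1 replicate 3 or 4 or wild-type replicate 1, highest adjusted p 0.166). Of 31 p53 pathway genes RA raised 2 at 1.5 h, perp by 0.45 and the p53 relative tp63 by 2.25, with 0.38 at its other probe set, or 6.45% of the list against 4.34% of all probe sets. The mean of 11 epidermis markers was 7.73, 8.45, 8.49 and 6.96 with RA at 1.5 h, against 7.83, 7.98, 5.57 and 5.86 with DMSO, and was low in DMSO replicates 3 and 4. None of the 11 was called in limma, with 4 higher at an unadjusted p under 0.05 and a list median of 1.03, and their part in the tp63 and perp results was not tested. The perp call was lost without RA replicate 4 (adjusted p = 0.0887), and that of tp63 without DMSO replicate 3 or 4 or RA replicate 2 or 3 (highest adjusted p 0.190). At 3 h limma called none of the 31, with 3 at an unadjusted p under 0.05. DAPT at 3 h gave 2 rises and 1 fall, or 9.68% of the list against 5.35% of all probe sets. Among them were the ribosomal protein gene rps27l, higher by 1.34, and the repair gene ddb2, lower by -0.93. That group had 2 arrays, and without replicate 1 the values were 0.44 for rps27l (adjusted p = 0.720) and -0.49 for ddb2 (adjusted p = 0.496). The rps27l call was also lost without DMSO replicate 3.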

How the data were processed

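Deposited values were Affymetrix MAS5 intensity values on a linear scale, per the submitters' processing notes; the MAS5 version is not given in the sources used here. Every array had the same trimmed mean of 150, and 13 arrays of the DAPT experiment were rounded to 1 decimal. A pseudocount of 16 was added, log2 taken and the arrays quantile normalized, because array medians spanned 0.738, more than the limit of 0.5. The pseudocount understates changes of dim genes. Probe sets above the array median on at least 3 arrays (10126 of 15502) were tested. Symbols came from the platform annotation, updated by Entrez identifier. Of the 15502, 10795 had 1 symbol, 135 several and 4572 none. A probe set annotated with a member and other symbols was left out (1 in all).

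Groups were compared with limma 3.58.1 in R 4.3.3 (statmod 1.5.0), with 19 group means over 72 arrays, trend and robust moderation, two-sided p-values and, within each of the 22 comparisons, Benjamini-Hochberg adjustment (threshold 0.05). The script was tested on simulated data. Arrays of a group are called biological replicates, without saying what they were taken from, so p-values measure the spread between these samples. The labels give no batch. Replicate numbers were taken to pair samples where every same-numbered pair of arrays deviated together (r over 0.1) and at least 3 numbers were shared. This held in 1 of 17 comparisons, notch1a-intra against gal4 at 45 min, with r from 0.21 to 0.31. In DAPT against DMSO at 3 h only 2 numbers were shared, and both pairs were over 0.1 (r of 0.10 and 0.17).

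Named genes were the members, up to 4 called genes per list and comparison with the smallest p, the 3 closest patterns per member, and genes that check labels. The closest patterns were taken among tested genes with 1 symbol, without members and placeholder names. List genes with more than 1 probe set were counted by the brightest. Members and lists were chosen with earlier results of these data known. Alternatives were the deposited scaling, median centring, pseudocounts of 1 and 64, no filter and a filter of 36 arrays, the compared groups alone with and without a replicate block, array quality weights, plain moderation, each array left out, replicates 1 and 3 of notch1a-intra at 45 min only, and, added after the data were seen, wild type at 30 min as control.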

Additional observations from a re-analysis of the deposited data

Results flagged for a closer look

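In 5 of the 112 combinations of a member probe set and a group of 4 arrays, 1 array stood far from the other 3 by Dixon's ratio, the gap to the nearest array over the whole range. Chance flags about 1 in 20 groups. In DMSO for RA at 1.5 h, mdm2 in replicate 2 was at 6.1, with its nearest neighbour at 6.84 (ratio 0.892). In DMSO for RA at 3 h, mdm4 in replicate 2 was at 8.54 with the nearest array at 8.10 (0.989), gadd45ga in replicate 4 at 6.37 with the nearest at 5.71 (0.888), and the dimmer cdkn1bb probe set in replicate 1 at 6.41 with the nearest at 6.05 (0.914). In dkk1, gadd45ga in replicate 4 was at 7.73 with the nearest at 7.27 (0.895). None of these arrays decided a call of a member when left out.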

How the results depend on the processing

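Of the 16 called member differences, none changed direction in 329 alternative values, and 284 kept the call. Leaving out single arrays kept it in 133 of 160 cases. The mdm2 and cdkn1bb rises in heat-shocked wild type, the cdkn1bb falls in the 3 Wnt groups and in notch1a-intra at 90 min, and the gadd45ga rise in dkk1 were called in every alternative run. Counts of members called (of 6, or of 7 with no filter) moved as follows, and the cause was not tested.

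With the compared groups alone, which leaves fewer arrays to estimate the spread, the count was 1 for RA at 1.5 h (0 in the model of all groups), 0 for dnfgfr1 at 1 h (1), 1 for DeltaTcf (2), 1 for notch1a-intra at 45 min (4), 0 for gal4 at 90 against 45 min (1) and 1 for DMSO at 3 against 1.5 h in the RA experiment (0). With the replicate number as a block it was 1 for DeltaTcf (2), 1 for notch1a-intra at 45 min (4), 1 at 90 min (2), 0 for gal4 (1) and 1 for DMSO in the RA experiment (0). The block changed no other count of members by over 1.5 times. The numbers were not shown to pair arrays other than at 45 min, where they deviated together. With array quality weights the count was 1 for RA at 1.5 h, wild type at 1 h against 30 min, DMSO in the RA experiment and the notch1a-intra effect between times (0 in each without weights). With the deposited scaling it was 1 for DMSO in the RA experiment (0), with a pseudocount of 1 it was 1 for DAPT at 1.5 h (0) and 1 for wnt8a (2), and with no filter 1 for wnt8a. With wild type at 30 min as control, chosen with the data in view, 4 members were called for dkk1 and 4 for wnt8a (2 each). Calls over all probe sets moved too. With that control they ran from 1290 to 3137 in 4 comparisons, and 2 of these moved by over 1.5 times. With array quality weights 17 of 22 comparisons moved by over 1.5 times. Whether member counts moved more than calls over all probe sets was not tested.

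With each array left out in turn the count ran from 0 to 1 for DAPT at 1.5 h, dnfgfr1 at 1 h and gal4, from 1 to 2 for DeltaTcf, wnt8a and notch1a-intra at 90 min, from 1 to 4 for notch1a-intra at 45 min and from 2 to 3 for heat-shocked wild type.

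Over all probe sets the count of calls moved by over 1.5 times with array quality weights in 17 of 22 comparisons, with the compared groups alone in 10 of 22 and with the replicate block in 10 of 21. For notch1a-intra at 45 min, 414 probe sets were called, against 2651 with weights, 61 with the groups alone, 158 with the block and 1187 with replicates 1 and 3 only. Of 83 differences of named list genes, 35 kept their call in all alternatives run for them and none of 1668 values changed direction. A small number of arrays and dim signals limit all of these, since values near 4 have little room to fall.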
